A study of Mus musculus with 38 samples.

Results

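Chemokines are small secreted proteins that draw leukocytes and microglia along a concentration gradient by binding receptors that couple to G proteins, and their families are named after the spacing of the first cysteines of the mature protein. In the brain, microglia are a known source of the CC ligands Ccl3, Ccl4, Ccl6 and Ccl9, while neurons make the membrane-anchored Cx3cl1 (fractalkine), whose receptor Cx3cr1 is carried by microglia. The genes described here are 10 chemokine ligands, Ccl2, Ccl3, Ccl4, Ccl5, Ccl6, Ccl9, Ccl12, Cxcl10, Cxcl16 and Cx3cl1, out of 48709 genes counted in hippocampal RNA of 38 mice. They were chosen by name and found by their Ensembl identifiers, and all 10 were in every mouse's count file.

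APPPS1ΔE9 mice are transgenic mice that deposit amyloid with age, and were kept on a C57BL/6 background, as were their wild-type (WT) controls. Anle138b is a small molecule developed against protein aggregates, mixed into the feed here (2 g per kg), and placebo mice ate the feed without it. In the pre-plaque group, treatment began at 2 months of age and the mice were analysed at 6 months, with 4 WT placebo, 4 WT anle138b, 4 APPPS1ΔE9 placebo and 4 APPPS1ΔE9 anle138b mice. In the post-plaque group, treatment began at 6 months and the mice were analysed at 10 months, with 5 WT placebo, 5 WT anle138b, 5 APPPS1ΔE9 placebo and 7 APPPS1ΔE9 anle138b mice. Each library was 1 mouse. The 2 ages were separate cohorts, so age itself was not tested. RNA came from the whole hippocampus, so that more cells of a type and more RNA per cell cannot be told apart in any value below.

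Total counts per mouse lay between 15847985 and 31895808. App was at 1506 to 1809 CPM (read counts per 1000000 counts of the library, scaled with TMM factors over all 38 libraries) in the 18 WT mice and at 3228 to 4318 CPM in the 20 APPPS1ΔE9 mice, with no overlap, and the 4 pre-plaque placebo libraries titled WT, for which another label names the transgenic genotype, lay on the WT side. The study's methods state male mice, yet 12 of the 38 had no Y-linked expression (Y-linked sum under 10 CPM), 11 of them WT and 1 APPPS1ΔE9, so sex and genotype are partly confounded. Sequencing lane and group were also nearly inseparable: no lane held both WT and APPPS1ΔE9 libraries of the 10-month cohort, and there lane and genotype cannot be told apart. In the 6-month cohort only lane 5 held both genotypes, as WT mice on anle138b and APPPS1ΔE9 mice on placebo. Within each chow at 6 months, lane and genotype therefore cannot be told apart either. Neuronal markers summed to 9095 to 12260 CPM, while choroid plexus markers ranged from 32.8 to 7961 CPM. Mouse 39 (WT, anle138b, 6 months) stood apart in inflammatory genes, with Il1b at 2.39, Cxcl1 at 4.72 and Nfkb2 at 14.5 CPM, against at most 0.408, 0.386 and 3.76 CPM in the other 37 mice, genes named after their values were seen. Without it, no edgeR call of a ligand at 6 months or between the cohorts changed, with log2 fold changes over both chows at 6 months of 1.57 for Ccl3 (adjusted p = 0.0132) and 0.69 for Ccl6 (0.154).

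The signature that names the families is shown first, for 9 of the 10 ligands, since it tells the families apart at a glance. Each line gives the coding stretch around the first cysteines of the mature protein, 5′ to 3′ in the direction of the gene (GRCm38, GENCODE M21), with 5 codons on either side and the cysteine codons in capitals. The capitals are adjacent in the 6 CC ligands shown, separated by 1 codon in Cxcl10 and Cxcl16, and by 3 codons in Cx3cl1. Every stretch lies within 1 coding exon, exon 3 in Ccl6 and Ccl9 and exon 2 in the other 7.
Ccl4 (chr11:83663467-83663502, plus strand): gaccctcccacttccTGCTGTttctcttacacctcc
Ccl5 (chr11:83529227-83529262, minus strand): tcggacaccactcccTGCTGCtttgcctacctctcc
Ccl6 (chr11:83589371-83589406, minus strand): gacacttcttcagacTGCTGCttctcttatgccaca
Ccl9 (chr11:83575911-83575946, minus strand): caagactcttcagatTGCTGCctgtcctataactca
Ccl2 (chr11:82036491-82036526, plus strand): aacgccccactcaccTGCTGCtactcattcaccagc
Ccl12 (chr11:82102619-82102654, plus strand): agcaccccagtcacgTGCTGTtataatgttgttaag
Cxcl10 (chr5:92348166-92348204, minus strand): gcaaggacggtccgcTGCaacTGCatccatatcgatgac
Cxcl16 (chr11:70459112-70459150, minus strand): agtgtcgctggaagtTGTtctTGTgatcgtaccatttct
Cx3cl1 (chr8:94778036-94778080, plus strand): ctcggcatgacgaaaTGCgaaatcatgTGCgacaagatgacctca
The cysteines come later in Ccl6 and Ccl9, at codons 50 and 57, than in Ccl4, at codon 34. The coding sequences of Cxcl16 (246 codons) and Cx3cl1 (395 codons) are the longest of the 10, and both proteins are anchored in the membrane by a mucin stalk until they are shed.

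Near-identical copies and overlapping genes can blur counts, so each transcript was searched for runs of 50 bases that another gene's transcripts share. For 7 of the 10 ligands there were none. Cxcl16 shared 16.9% of its runs with Zmynd15, Cxcl10 3.59% with Art3, both of which overlap the ligand on the opposite strand, and Ccl9 1.97% with at least 3 genes elsewhere. Whether the counting used strand is not given in the sources used here, so reads of Cxcl16 and Zmynd15, or of Cxcl10 and Art3, cannot be told apart in the overlap.

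Most of the ligands were rare messages. In CPM per kilobase of exon, the scale on which genes can be compared, Cx3cl1 stood at 133.9 ± 13.7 (SD, n = 18) in WT mice and every other ligand was below 1. Ccl6 followed at 0.980 ± 0.238, then Ccl12 at 0.671 ± 0.353, Cxcl16 at 0.526 ± 0.132, Ccl9 at 0.495 ± 0.143, Ccl3 at 0.413 ± 0.173 and Cxcl10 at 0.237 ± 0.137. The lowest were Ccl4 at 0.185 ± 0.124, Ccl5 at 0.136 ± 0.0882 and Ccl2 at 0.0752 ± 0.0399. From Ccl6 downwards, each ligand's mean ± SD overlapped that of the next, so this order is no ranking of neighbours. In the 12 APPPS1ΔE9 mice of 10 months the order of the means was another: Ccl6 (3.32 ± 1.15) and Ccl3 (3.04 ± 1.18) came after Cx3cl1 (136.4 ± 15.4), Ccl4 came next at 1.46 ± 0.618, and Ccl12 was behind them at 0.979 ± 0.437. Here too, from Ccl6 downwards, each mean ± SD overlapped that of the next ligand, so neighbours are not ranked.

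Ccl2 and Ccl5 were too low to measure. Ccl2, a monocyte attractant that acts through Ccr2, had 0 to 13 reads per mouse (median 2), and Ccl5, a CC ligand that attracts T cells and monocytes, had 1 to 15 reads (median 4). Both were dropped in each of the 13 comparisons by edgeR's filter on low counts, which keeps a gene whose count reaches about 10 in as many libraries as the smaller group holds, so neither has a test. Their group values overlapped in every pair of groups compared. At 10 months Ccl2 was at 0.0952 ± 0.0421 CPM (SD, n = 10) in WT and 0.123 ± 0.137 (n = 12) in APPPS1ΔE9 mice, and Ccl5 at 0.131 ± 0.0909 and 0.287 ± 0.178 CPM. Ccl5 reached 0.690 CPM in 1 APPPS1ΔE9 anle138b mouse of 10 months, against at most 0.272 CPM in the 10-month WT mice. Ccl4 and Ccl12 were testable in some comparisons only, and Ccl3 was dropped in both comparisons of the chows within WT mice. Where Ccl3 or Ccl4 was tested between genotypes, it passed the filter through its reads in APPPS1ΔE9 mice.

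**Figure D1:**
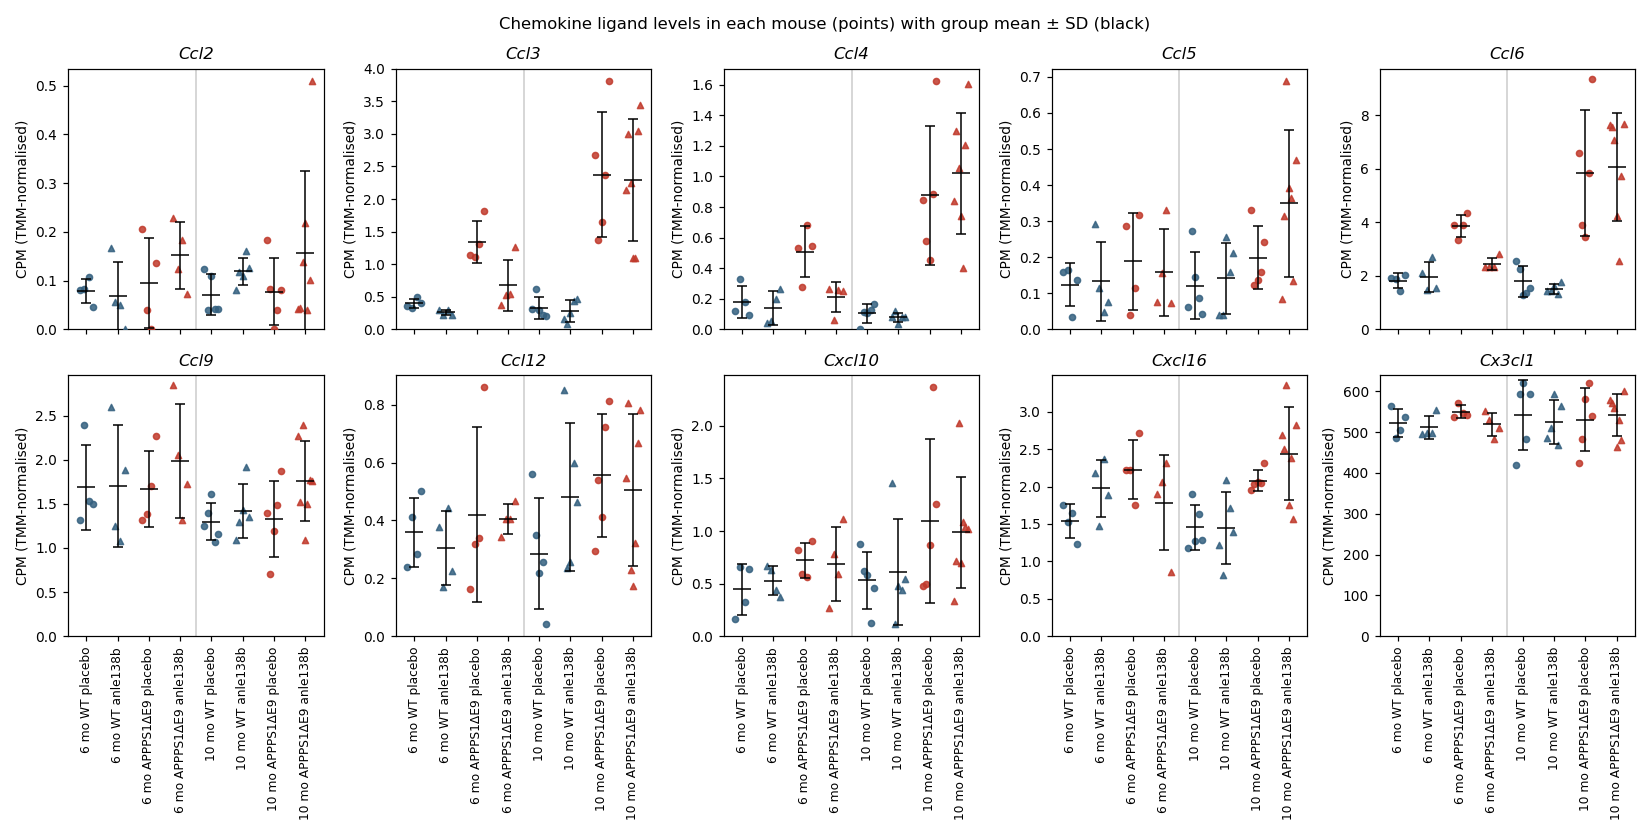
Level of each of the 10 chemokine ligands in each mouse, in TMM-normalised CPM on linear axes that differ between panels. Circles are placebo and triangles anle138b mice, blue is WT and red APPPS1ΔE9, black marks give the mean ± SD of each of the 8 groups (lower arms are cut at 0), and the grey line parts 6 from 10 months. Ccl3 and Ccl4 of 10-month APPPS1ΔE9 mice stand above all 10-month WT mice, whereas Ccl9 and Cx3cl1 overlap in every pair of groups compared.

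The question of the first comparison is which ligands differ with genotype in the pre-plaque cohort, in placebo mice of 6 months (4 against 4). Ccl3 and Ccl6 rose, 2 of 6 ligands tested, where edgeR's quasi-likelihood test called 0.0715% of the 16774 genes tested at a Benjamini-Hochberg adjusted p under 0.1 (12 genes). Ccl3, known as MIP-1α, a ligand of Ccr1, was at 0.360, 0.330, 0.50 and 0.409 CPM in WT placebo mice and at 1.15, 1.11, 1.31 and 1.81 CPM in APPPS1ΔE9 placebo mice. Its groups did not overlap, and the log2 fold change was 1.72 ± 0.26 (SE, adjusted p = 0.036). Ccl6, a rodent CC chemokine that binds Ccr1, was at 1.92, 1.90, 1.43 and 2.05 CPM in WT and at 3.90, 3.33, 3.92 and 4.35 CPM in APPPS1ΔE9 placebo mice. Again no APPPS1ΔE9 value came down to a WT value, with a log2 fold change of 1.09 ± 0.17 (adjusted p = 0.036). Of all 16774 genes tested, 434 were likewise higher without overlap and 584 were lower without overlap. Ccl4, known as MIP-1β, was too low to test here, with 3, 8, 5 and 2 reads in the WT and 13, 7, 12 and 12 in the APPPS1ΔE9 placebo mice, and the groups overlapped at 7 to 8 reads. The other ligands tested, Cxcl16 (log2 fold change 0.53 ± 0.19, adjusted p = 0.386), Cxcl10 (0.72 ± 0.38, 0.492), Ccl9 (-0.02 ± 0.24, 0.982) and Cx3cl1 (0.07 ± 0.06, 0.667), did not pass. In the same mice, 3 of 12 genes of plaque-associated microglia were called and rose (median log2 fold change 0.46), and their sum was 244.7 to 305.5 CPM in WT and 299 to 368.3 CPM in APPPS1ΔE9 mice. Of 10 microglial markers none was called (median 0.15, 5 with an unadjusted p under 0.05), with a sum of 372.2 to 435.9 CPM in WT and 415.6 to 527.3 CPM in APPPS1ΔE9 mice. Of all 16774 genes tested, 1858 had an unadjusted p under 0.05. The part of these markers in the ligand differences was not tested.

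These calls rested on few mice. Ccl3 passed in 3 of 8 refits that left out a single mouse, and lost its call without APPPS1ΔE9 mouse 74 or 75 or WT mouse 30, 31 or 77, with adjusted p between 0.103 and 0.213. Ccl6 passed in 4 of 8, and lost its call without mouse 74, 75, 30 or 31 (adjusted p 0.103 to 0.156). The log2 fold changes stayed between 1.54 and 1.86 for Ccl3 and between 0.98 and 1.16 for Ccl6. Of the WT placebo mice, 3 of 4 lacked Y-linked expression and none of the APPPS1ΔE9 mice did. With a term for it, the log2 fold changes were 1.41 for Ccl3 and 1.43 for Ccl6, and neither passed (adjusted p = 1 and 0.574).

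In anle138b mice of 6 months (4 against 4), 0 of 7 ligands tested passed in edgeR's test, which called 0.047% of 17033 genes, and 1 ligand, Ccl3, had an unadjusted p under 0.05. So had 961 of the 17033 genes. DESeq2 called none of the 7 either. Ccl3 was at 0.293, 0.228, 0.295 and 0.226 CPM in WT and at 0.380, 0.529, 0.551 and 1.26 CPM in APPPS1ΔE9 mice on anle138b. These groups did not overlap, mouse 84 being the highest, and the log2 fold change was 1.37 ± 0.41 with an adjusted p of 0.783. Of all 17033 genes tested, 323 were higher and 244 lower without overlap. Ccl6 was at 2.09, 1.48, 2.71 and 1.55 CPM in WT and at 2.32, 2.33, 2.31 and 2.80 CPM in APPPS1ΔE9 mice on anle138b. Here the WT range reached into that of the APPPS1ΔE9 mice, with a log2 fold change of 0.32 ± 0.20 (adjusted p = 0.836). Over both chows (8 against 8), Ccl3 alone of 7 ligands tested passed, at 1.57 ± 0.24 (adjusted p = 0.00587), where 0.172% of 17404 genes passed. Ccl6 was at 0.71 ± 0.15 with an adjusted p of 0.11, and passed with DESeq2 (adjusted p = 0.00823) and without WT mouse 41 (0.0128). Ccl3 kept its call in all 16 refits without a single mouse but not with the term for Y-linked expression (log2 fold change 1.38, adjusted p = 0.343).

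In the post-plaque cohort of 10 months, the differences of Ccl3, Ccl4 and Ccl6 were larger in value and were called on both chows. In placebo mice (5 against 5), 3 of 8 ligands tested rose and none fell, where 0.324% of 16971 genes passed. In anle138b mice (7 against 5), 3 of 8 rose, where 0.723% of 17151 genes passed. Of all genes tested, 184 were higher and 54 lower without overlap between genotypes on placebo. On anle138b these were 137 and 13, and over both chows 72 and 0. The same 3 ligands, Ccl3, Ccl4 and Ccl6, passed on both chows, from different mice in each. Over both chows (12 against 10, the mice of both pairs together), 4 of 8 ligands tested passed and all 4 rose, where 1.56% of 17668 genes passed, and the median log2 fold change was 0.74 over the 8 ligands and -0.004 over all genes tested. Ccl3 and Ccl4 passed the filter only through the APPPS1ΔE9 mice, as WT mice of 10 months had 2 to 16 and 0 to 4 reads. The shares of ligands called and their median are therefore not independent of the filter. Without the filter, edgeR still called both over both chows (adjusted p = 3.94e-07 and 7.41e-08).

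Ccl4 had the highest log2 fold change of the ligands. In WT mice of 10 months it was at 0, 0.117, 0.110, 0.129 and 0.166 CPM on placebo and at 0.0811, 0.117, 0.0366, 0.0799 and 0.0842 CPM on anle138b, which are 0 to 4 reads per mouse. In APPPS1ΔE9 mice it was at 0.845, 0.580, 0.456, 0.882 and 1.62 CPM on placebo, and on anle138b it ran from 0.404 over a median of 1.06 to 1.60 CPM, which are 10 to 41 reads. Each of the 12 APPPS1ΔE9 mice was above each of the 10 WT mice. The log2 fold change over both chows was 3.27 ± 0.32 (adjusted p = 6.06e-07), with 2.93 ± 0.48 on placebo (0.0343) and 3.61 ± 0.41 on anle138b (0.00126).

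Ccl3 followed closely. It was at 0.312, 0.622, 0.292, 0.214 and 0.208 CPM in WT placebo mice and at 0.162, 0.0783, 0.257, 0.439 and 0.463 CPM in WT anle138b mice. In APPPS1ΔE9 mice it was at 2.68, 1.37, 1.64, 2.37 and 3.82 CPM on placebo, and between 1.09 and 3.44 CPM with a median of 2.25 on anle138b. The highest WT mouse, mouse 53 on placebo, stayed below the lowest APPPS1ΔE9 mouse. The log2 fold change was 2.92 ± 0.29 over both chows (adjusted p = 9.14e-07), 2.81 ± 0.37 on placebo (0.00952) and 3.02 ± 0.43 on anle138b (0.00645).

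Ccl6 had more reads than Ccl3 and Ccl4, 32 to 230 per mouse at 10 months, and a smaller log2 fold change. WT mice were at 2.56, 2.26, 1.28, 1.37 and 1.54 CPM on placebo and at 1.42, 1.45, 1.61, 1.32 and 1.77 CPM on anle138b. APPPS1ΔE9 mice were at 6.58, 3.90, 3.47, 5.86 and 9.34 CPM on placebo and between 2.54 and 7.67 CPM with a median of 7.08 on anle138b. Within each chow the genotypes did not overlap, but the lowest APPPS1ΔE9 mouse, mouse 99 on anle138b, lay just below WT mouse 52 on placebo. The log2 fold change was 1.86 ± 0.20 over both chows (adjusted p = 3.74e-06), 1.71 ± 0.30 on placebo (0.0497) and 1.996 ± 0.262 on anle138b (0.00336).

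Cxcl16, a membrane-anchored ligand of Cxcr6 that also takes up oxidised lipoprotein, passed over both chows but in neither pair alone. It was at 1.19, 1.91, 1.28, 1.63 and 1.29 CPM in WT placebo mice and at 1.22, 0.822, 2.09, 1.72 and 1.39 CPM in WT anle138b mice. APPPS1ΔE9 placebo mice lay closely together at 1.95, 2.03, 2.05, 2.05 and 2.31 CPM, and those on anle138b ranged from 1.57 over 2.51 to 3.36 CPM. On placebo the genotypes did not overlap, on anle138b they did, and neither pair passed (adjusted p = 0.645 and 0.538). The log2 fold change over both chows was 0.63 ± 0.15 (adjusted p = 0.0322), and 0.74 with an adjusted p of 0.218 in mice with Y-linked expression only. On anle138b it passed once the fit had a term for Y-linked expression (log2 fold change 1.08, adjusted p = 0.0394). In the overlap with Zmynd15 its reads cannot be told apart, as stated above.

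**Figure D2:**
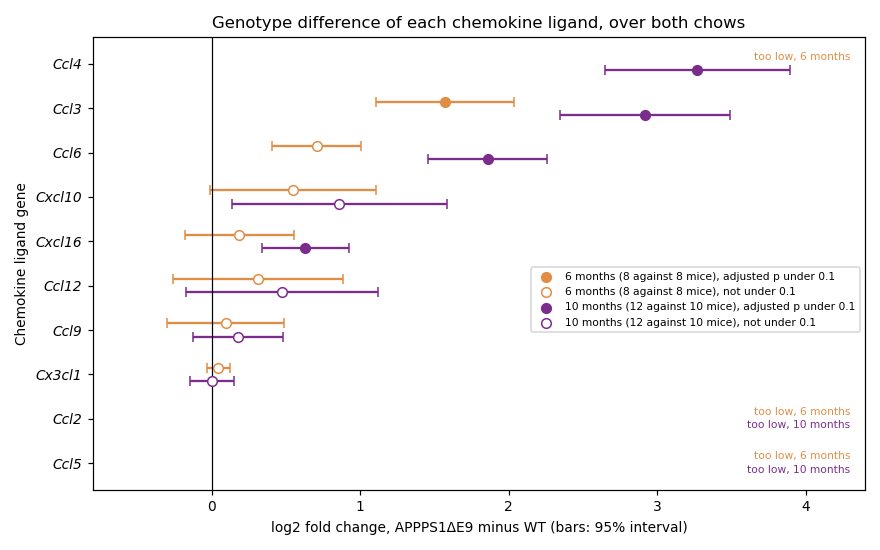
Log2 fold change of APPPS1ΔE9 minus WT over both chows for each ligand, at 6 months (orange, 8 against 8 mice) and 10 months (purple, 12 against 10 mice), with 95% intervals as bars. Filled points have an adjusted p under 0.1. Ccl4, Ccl3, Ccl6 and Cxcl16 are filled at 10 months and Ccl3 alone is filled at 6 months. Ccl4 was too low to test at 6 months, and Ccl2 and Ccl5 have no value at either age.

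The remaining ligands did not pass at 10 months. Cxcl10, an interferon-induced ligand of Cxcr3, was spread widely, from 0.117 to 1.46 CPM (median 0.512) in WT and from 0.336 to 2.37 CPM (median 0.942) in APPPS1ΔE9 mice, with a log2 fold change of 0.86 ± 0.37 (95% interval 0.13 to 1.58, unadjusted p = 0.0298, adjusted p = 0.597). Ccl12, like Ccl2 a monocyte attractant, had 1 to 21 reads per mouse and a log2 fold change of 0.47 ± 0.33 (-0.17 to 1.12, adjusted p = 0.884). Ccl9, which like Ccl6 binds Ccr1, lay between 1.07 and 1.92 CPM in WT and between 0.705 and 2.39 CPM in APPPS1ΔE9 mice, with a log2 fold change of 0.18 ± 0.15 (-0.12 to 0.48, adjusted p = 0.93). Cx3cl1 was measured most precisely, with 6729 to 17017 reads per mouse. It was at 533.3 ± 68.1 CPM (SD, n = 10) in WT and at 536.2 ± 60.4 CPM (n = 12) in APPPS1ΔE9 mice, a log2 fold change of 0.004 ± 0.076 with a 95% interval of -0.14 to 0.15.

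In the comparison on placebo, leaving out 1 mouse ended some calls. Without WT mouse 53, 54 or 55, Ccl4 had adjusted p of 0.106, 0.125 and 0.109, and Ccl6 had 0.103, 0.174 and 0.177. Ccl6 also lost its call without WT mouse 56 (0.184) or APPPS1ΔE9 mouse 57 (0.129) or 91 (0.135), while Ccl3 passed in all 10 refits. On anle138b and over both chows, Ccl3, Ccl4 and Ccl6 passed in all refits without a single mouse, 12 and 22 of them. Over both chows their log2 fold changes in mice with Y-linked expression only were 3.13, 2.93 and 1.82, for Ccl3, Ccl4 and Ccl6, with adjusted p of 0.00686, 0.00686 and 0.0182. Within a single chow that restriction left none of the 3 called: on placebo the log2 fold changes were 2.48, 2.60 and 1.61 (adjusted p = 0.775 for each), and on anle138b they were 4.22, 3.29 and 2.04 (0.103, 0.153 and 0.201). The restriction removed 3 of the 5 WT mice on each chow, and 1 of the 7 APPPS1ΔE9 mice on anle138b. With a term for Y-linked expression, Ccl3, Ccl4 and Ccl6 stayed called on anle138b and over both chows, but not on placebo (adjusted p = 0.311, 0.799 and 0.799).

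Whether the genotype difference differed between the cohorts was tested over all 38 mice as an interaction of genotype and cohort. No ligand of 8 passed with edgeR, which called 0.148% of 18232 genes, while 3 had an unadjusted p under 0.05. So had 1369 of the 18232 genes. The log2 fold change was larger at 10 months by 2.23 ± 0.54 for Ccl4 (adjusted p = 0.117), by 1.15 ± 0.28 for Ccl6 (0.114) and by 1.35 ± 0.42 for Ccl3 (0.34). Ccl4 was too low to test at 6 months alone, with 1 to 8 reads in WT and 2 to 13 in APPPS1ΔE9 mice. DESeq2 called Ccl4 (adjusted p = 0.0419) and Ccl6 (0.0315). With edgeR, leaving out 1 mouse gave a call for Ccl6 without mouse 97, 99, 86, 87, 52, 53, 75 or 37 (adjusted p 0.0326 to 0.0829) and for Ccl4 without mouse 99, 86, 87, 75 or 77 (0.058 to 0.0953), so the side of the threshold was not settled.

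The effect of anle138b on the ligands was compared within each genotype and age, in the same mice as the genotype comparisons, so that these values are not independent of those above. With edgeR and its filter, no ligand passed in any of the 4 comparisons or in either interaction of genotype and chow, while DESeq2 and edgeR without the filter called Ccl6 in APPPS1ΔE9 mice of 6 months, as given below. In WT mice edgeR called 0 genes at 6 and at 10 months, that is 0%, with 310 and 212 genes at an unadjusted p under 0.05 and none of the 5 ligands tested among them. In WT mice of 10 months, Ccl6, Ccl9, Cxcl10, Cxcl16 and Cx3cl1 had log2 fold changes between -0.24 and 0.21. In WT mice of 6 months the 5 lay between -0.03 and 0.36, and Ccl3, which was too low to test at 4 to 14 reads, was at 0.226 to 0.295 CPM on anle138b and at 0.330 to 0.50 CPM on placebo, without overlap. Of the 16766 genes tested there, 146 were lower on anle138b without overlap and 105 higher.

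In APPPS1ΔE9 mice of 6 months, where 0.0529% of 17009 genes passed, Ccl6 was lower on anle138b in value: the 4 placebo mice lay between 3.33 and 4.35 CPM and the 4 anle138b mice between 2.31 and 2.80 CPM, without overlap. Its log2 fold change was -0.66 ± 0.14, with an unadjusted p of 0.000443 and an adjusted p of 0.247. It passed with DESeq2 (adjusted p = 0.0588), without the filter on low counts (0.0722), and without placebo mouse 17 (0.0848). Ccl3 was at -0.98 ± 0.34 (adjusted p = 0.324), with mouse 84 on anle138b (1.26 CPM) within the placebo range of 1.11 to 1.81 CPM. Ccl4 could not be tested, and its 4 anle138b mice, at 0.266, 0.0622, 0.257 and 0.252 CPM, were all below its 4 placebo mice, of which the lowest was at 0.277 CPM. Such separation was not rare in this comparison. Among the 17009 genes tested, 579 were lower on anle138b without overlap, and fewer were higher without overlap. The interaction of genotype and chow was -0.76 ± 0.26 for Ccl6 (adjusted p = 0.618) and -0.36 ± 0.51 for Ccl3 (0.85), in a test that called 0% of 17404 genes, with 1390 genes at an unadjusted p under 0.05, Ccl6 among them. Microglial markers were lower in value in the same mice: 9 of 10 were lower on anle138b (median log2 fold change -0.15, 3 with an unadjusted p under 0.05), and so were 9 of 12 genes of plaque-associated microglia (median -0.41, 6 with an unadjusted p under 0.05), with none called. Of all 17009 genes tested, 2233 had an unadjusted p under 0.05. The microglial sum was 415.6 to 527.3 CPM on placebo and 383.6 to 471.6 CPM on anle138b, and that of the plaque-associated genes 299 to 368.3 and 271.6 to 334.5 CPM. Their part in the ligands' values was not tested. All placebo libraries of this comparison were in lane 5 and all anle138b libraries in lane 6, so that lane and chow cannot be told apart.

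In APPPS1ΔE9 mice of 10 months, edgeR called 0% of 17110 genes between the chows, with 254 genes at an unadjusted p under 0.05 and no ligand among them. The log2 fold changes of anle138b minus placebo were -0.05 ± 0.33 for Ccl3 (95% interval -0.69 to 0.60), 0.22 ± 0.35 for Ccl4 (-0.47 to 0.90) and 0.06 ± 0.30 for Ccl6 (-0.53 to 0.64). These intervals leave room for changes of a smaller size in either direction. The interaction of genotype and chow at 10 months called 0% of 17668 genes, with 407 genes and no ligand at an unadjusted p under 0.05, and the 8 ligands lay between -0.92 ± 0.66 for Ccl12 and 0.67 ± 0.72 for Ccl4.

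The CC ligand genes Ccl5, Ccl9, Ccl6, Ccl3 and Ccl4 lie together on chromosome 11 (GRCm38), from Ccl5 at chr11:83525778-83530518 to Ccl4 at chr11:83662584-83664683. Along this stretch the genotype difference at 10 months was not uniform. Ccl9, 74.9 kb before Ccl3 (left end to left end), had a log2 fold change of 0.18, Ccl6, 60 kb before Ccl3, had 1.86, and Ccl4 lies 14.7 kb beyond it. The non-chemokine genes within 50 kb of the stretch are named here after their values were seen. Taf15 was at 0.07 ± 0.05 (adjusted p = 0.885) and Wfdc18 at -0.08 ± 0.18 (0.963). Wfdc17 was at 1.66 ± 0.32 (0.00464) and lies 56.1 kb beyond Ccl3. Another 10 annotated genes there, Ccl5 among them, were too low to test.

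**Figure D3:**
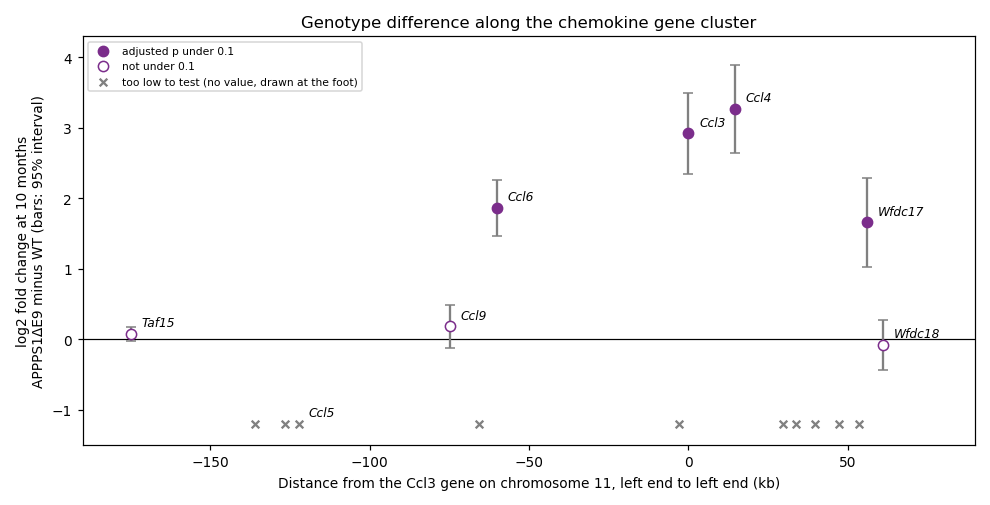
Log2 fold change of APPPS1ΔE9 minus WT at 10 months over both chows for each annotated gene along the Ccl5 to Ccl4 stretch and 50 kb beyond, against distance from Ccl3 in kb, with 95% intervals. Filled points have an adjusted p under 0.1 and crosses at the foot are genes too low to test. Ccl6, Ccl3, Ccl4 and Wfdc17 are filled, with Ccl9 between Taf15 and Ccl6 near 0.

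Promoters were compared because neighbours in this cluster moved unequally. RefSeq sequences (GRCm38.p6) of 250 bases before to 50 after the start were given for 6 of the 10 ligands, and 4 are shown: Ccl3 and Ccl6, which rose, Ccl9, which lies beside them, and Cxcl10 as an interferon-induced gene. Capitals mark matches on either strand to the NF-kB motif, to the interferon response element GAAANNGAAA and to the AP-1 site TGAGTCA.
Ccl3 (chr11:83649329-83649628, minus strand): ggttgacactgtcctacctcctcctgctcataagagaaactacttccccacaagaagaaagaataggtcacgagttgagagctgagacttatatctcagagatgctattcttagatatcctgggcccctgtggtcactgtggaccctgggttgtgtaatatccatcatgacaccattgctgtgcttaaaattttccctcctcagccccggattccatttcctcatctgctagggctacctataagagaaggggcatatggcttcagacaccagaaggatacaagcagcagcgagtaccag
Ccl6 (chr11:83593038-83593337, minus strand): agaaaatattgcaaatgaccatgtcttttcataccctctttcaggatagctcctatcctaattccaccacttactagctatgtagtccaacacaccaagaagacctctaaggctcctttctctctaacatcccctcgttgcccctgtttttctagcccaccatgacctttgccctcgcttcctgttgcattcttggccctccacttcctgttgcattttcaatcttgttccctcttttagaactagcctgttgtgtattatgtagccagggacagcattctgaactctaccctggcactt
Ccl9 (chr11:83578587-83578886, minus strand): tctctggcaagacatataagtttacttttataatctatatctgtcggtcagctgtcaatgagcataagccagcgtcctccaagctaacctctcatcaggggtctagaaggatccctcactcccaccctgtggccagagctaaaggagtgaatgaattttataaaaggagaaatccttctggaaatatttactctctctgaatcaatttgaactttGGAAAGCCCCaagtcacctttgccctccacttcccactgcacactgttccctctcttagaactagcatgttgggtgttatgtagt
Cxcl10 (chr5:92348840-92349139, minus strand): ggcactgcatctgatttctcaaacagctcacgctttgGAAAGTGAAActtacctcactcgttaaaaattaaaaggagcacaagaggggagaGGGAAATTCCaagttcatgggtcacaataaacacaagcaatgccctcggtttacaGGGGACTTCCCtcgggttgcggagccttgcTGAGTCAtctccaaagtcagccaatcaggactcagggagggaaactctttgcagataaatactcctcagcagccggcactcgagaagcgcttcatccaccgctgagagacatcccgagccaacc
Cxcl10 held 3 NF-kB matches, 2 of them overlapping, 1 interferon response element and 1 AP-1 site, and Ccl9 held 1 NF-kB match. Ccl3 and Ccl6 held none of the 3, nor the motifs GAGGAAGT (PU.1) or TTGCNNAA (C/EBP), which says only that these letters are not in this window. Of 32851 promoters of this length, 8.46% held the NF-kB motif, 3.44% the interferon response element, 5.2% the AP-1 site, 3.2% the PU.1 and 10.8% the C/EBP motif.

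Ccl3, Ccl4 and Ccl6 varied together among the 12 APPPS1ΔE9 mice of 10 months. Permutation tests were two-sided. On log2 CPM, Pearson's r was 0.877 between Ccl3 and Ccl4 (Spearman's rho 0.937, permutation p = 0.00036 and 5e-05, adjusted 0.00252 and 0.00105 over 21 relations), 0.926 without the 2 mice farthest from the median of Ccl3, and 0.922 and 0.915 within lane 5 and lane 6 (6 mice each). Ccl4 and Ccl6 had an r of 0.906 (rho 0.846, permutation p = 3e-05 and 0.0009, adjusted 0.00063 and 0.0063), 0.832 without the 2 mice farthest from the median of Ccl4, and 0.93 and 0.963 within the lanes. For Ccl3 and Ccl6 r was 0.87 (rho 0.776, permutation p = 0.00032 and 0.00423, adjusted 0.00252 and 0.0178), 0.824 without the 2 mice farthest from the median of Ccl3, and 0.886 and 0.869 within the lanes. Mouse 100 on placebo and 1 mouse on anle138b were high in all 3, and mouse 99 on anle138b was low in all 3. Ccl9 had r of 0.562, 0.531 and 0.609 to Ccl3, Ccl4 and Ccl6 (rho 0.51, 0.594 and 0.671, adjusted permutation p of r 0.113, 0.13 and 0.094, of rho 0.165, 0.0972 and 0.0575). These r were 0.609, 0.611 and 0.813 without the 2 mice farthest from the median of Ccl3, Ccl4 or Ccl6, whichever was in the pair. Cxcl10 had r of 0.197, 0.219 and 0.051 to Ccl3, Ccl4 and Ccl6 (rho 0.252, 0.329 and 0.035, permutation p from 0.296 to 0.921), or 0.278, 0.276 and 0.19 with 2 mice left out per pair in the same way. Cxcl16 had r of 0.21, 0.24 and 0.367 (rho 0.126, 0.252 and 0.497, permutation p from 0.104 to 0.698), or 0.096, 0.358 and 0.591 with 2 mice left out per pair in the same way.

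**Figure D4:**
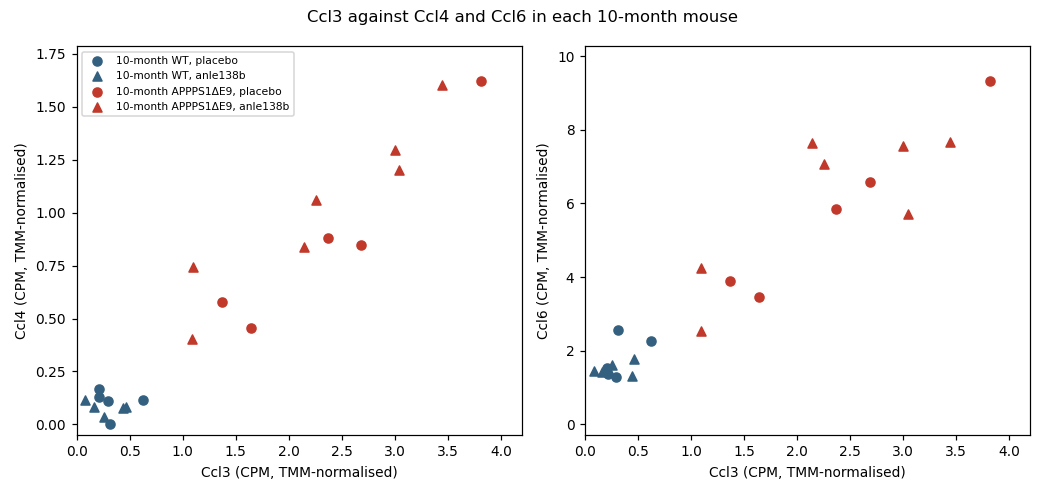
Ccl3 (horizontal) against Ccl4 (left) and Ccl6 (right) in each 10-month mouse, in TMM-normalised CPM on linear axes. Circles are placebo and triangles anle138b mice, blue is WT (10 mice) and red APPPS1ΔE9 (12 mice). The red points climb together, with r of 0.877 for Ccl4 and 0.87 for Ccl6 on log2 CPM, and placebo and anle138b mice are intermixed.

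Microglial markers moved with these ligands. The summed level of 10 microglial markers (Cx3cr1, P2ry12 and others) was 324.9 to 407.3 CPM in the 10-month WT and 417.2 to 628.9 CPM in the 10-month APPPS1ΔE9 mice, without overlap. Over both chows 8 of the 10 rose, against 1.56% of all genes called, and 2 were called on placebo and 4 on anle138b alone. Of 12 genes of plaque-associated microglia, 8 rose over both chows, 6 on placebo and 7 on anle138b, and their sum went from 199 to 266.7 CPM in WT to 307.3 to 481.8 CPM in APPPS1ΔE9 mice. Among the 12 APPPS1ΔE9 mice, the microglial sum had an r of 0.739 with Ccl3 (rho 0.664, permutation p = 0.00789 and 0.0219, adjusted 0.0237 and 0.0575), 0.744 with Ccl4 (rho 0.741, permutation p = 0.00652 and 0.00838, adjusted 0.0228 and 0.0293) and 0.812 with Ccl6 (rho 0.797, permutation p = 0.00123 and 0.0026, adjusted 0.00613 and 0.0136). Without the 2 mice farthest from the median of the ligand these r were 0.546, 0.654 and 0.771, and within the lanes they were between 0.677 and 0.847. Ccl9, which did not differ with genotype beyond its spread, had an r of 0.786 with this sum (rho 0.874, permutation p = 0.00146 and 0.00051, adjusted 0.00613 and 0.00536, 0.844 without the 2 mice, 0.79 and 0.897 within the lanes). The part of the microglial level in the ligand differences was not tested.

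Set against the microglial sum of the same mouse, the ligands differed from one another. Per 1000 CPM of summed microglial markers, Ccl3 was at 0.812 ± 0.399 CPM (SD, n = 10) in WT and 4.46 ± 1.46 (n = 12) in APPPS1ΔE9 mice of 10 months, a ratio of means of 5.49 without overlap. Ccl4 was at 0.249 ± 0.130 and 1.84 ± 0.648, a ratio of 7.38, likewise without overlap. Ccl6 was at 4.53 ± 1.31 and 11.4 ± 3.03, a ratio of 2.52 with overlap. Cxcl16 was at 3.91 ± 0.866 and 4.47 ± 0.722 (ratio 1.14), and Ccl9 at 3.67 ± 0.590 and 3.04 ± 0.630 (ratio 0.827), both with overlap. For Cxcl10, Ccl12 and Cx3cl1 the ratios were 1.25, 0.945 and 0.733, each with overlap. These ratios are descriptions of the mice at hand and carry no test. They depend on the marker list: the median log2 fold change was 0.42 for these microglial markers and 1.01 for the plaque-associated genes. The ligands were not set against the plaque-associated sum. Markers of other immune cells were low in all 38 mice: those of T and NK cells summed to at most 1.88 CPM and those of monocytes and neutrophils to at most 5.52 CPM, while border macrophage markers summed to 5.65 to 21.8 CPM. Over both chows at 10 months, of 8 T and NK cell genes 1 was tested, of 6 monocyte and neutrophil genes 2, and of 6 border macrophage genes 6, with no call by edgeR and 1 unadjusted p under 0.05, in the border macrophage list. Of all 17668 genes tested there, 1249 had an unadjusted p under 0.05.

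The genes whose log2 CPM was most like that of a called ligand over the 38 mice were taken by Pearson's r among 18231 genes. For Ccl3 they were Trem2 (r = 0.95), Mpeg1 (0.948) and Clec7a (0.948), for Ccl4 Trem2 (0.92), Tyrobp (0.918) and Mpeg1 (0.911), and for Ccl6 Mpeg1 (0.941), Tyrobp (0.936) and Trem2 (0.933). For Cxcl16 they were Ctsz (0.734), Lyz2 (0.734) and Arpc1b (0.727). Around the means of the 8 groups these r were between 0.612 and 0.745 for Ccl3, 0.515 and 0.553 for Ccl4, 0.628 and 0.693 for Ccl6, and 0.539 and 0.557 for Cxcl16. These values pool genotypes that differ in level, share libraries and depth, and are descriptions.

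Among the receptors, Cx3cr1, the receptor of Cx3cl1, was the only one of 9 tested that passed over both chows at 10 months, where 1.56% of all genes passed. On placebo alone 0 of 8 receptors tested passed with edgeR, with 1 at an unadjusted p under 0.05, and on anle138b 1 of 9 passed. Of all 16971 genes tested on placebo, 696 had an unadjusted p under 0.05. Cx3cr1 was at 43.3 to 58.7 CPM in the 10 WT and 59.6 to 84.2 CPM in the 12 APPPS1ΔE9 mice, without overlap, with a log2 fold change of 0.46 ± 0.07 (adjusted p = 0.000413), while its ligand stood at 0.004. Ccr1 (0 to 18 reads per mouse), Ccr2 (1 to 21), Cxcr3 (0 to 9) and Cxcr6 (1 to 13) were too low to test at 10 months. At 6 months 0 of 12 receptors tested passed with edgeR over both chows, and 3 had an unadjusted p under 0.05. So had 1825 of all 17404 genes tested.

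Few other chemokine ligands were measurable. Of 28 others, 8 were high enough to test, and 0 passed with edgeR over both chows at 6 or at 10 months, with 1 at an unadjusted p under 0.05 at each age, Cxcl5 at 6 and Ccl28 at 10 months, which are named here after their values were seen. Their median log2 fold change was 0.009 at 10 months. Of all genes tested over both chows, 1249 of 17668 at 10 months and 1825 of 17404 at 6 months had an unadjusted p under 0.05. Of 15 genes that shed ligands or regulate them (Adam10, Adam17, NF-kB and interferon genes), 11 were tested and 0 passed at either age, with 3 at an unadjusted p under 0.05 at 10 months and 1 at 6 months. Of genes picked from this list after their values were seen, Adam10, which cuts Cx3cl1 and Cxcl16 from the membrane, was at 0.03 ± 0.04, and Irf7 at 0.53 ± 0.17 (adjusted p = 0.228). Of the cytokines that induce many chemokines, Tnf was at 0 to 6, Ifng at 0 to 1, Ifnb1 at 0 to 1 and Il1b at 1 to 42 reads per mouse, and Il1b was at most at 9 reads without mouse 39.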

How the data were processed

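Hippocampal mRNA of 38 mice was sequenced, and the authors deposited 1 table of raw read counts per gene and mouse, aligned to mm10 and counted with HTSeq per the labels. Whether the counting used strand is not given in the sources used here. Each library was grouped by its title, and 4 placebo libraries of the 6-month cohort titled as wild type, whose genotype label names the transgene, were used as wild type. Genes with low counts were dropped per comparison (filterByExpr, minimum count 10, minimum total 15), libraries were scaled with TMM, and the robust quasi-likelihood test of edgeR 4.0.16 (R 4.3.3) was run on all genes left. A gene was called at a Benjamini-Hochberg adjusted p under 0.1 over all genes tested. The SE is the log2 fold change over the root of F, and 95% intervals are 1.96 SE. Depth was 15847985 to 31895808 counts, and replicate pairs differed by more than sampling noise (chi-square over its degrees of freedom, 3.17 to 65.3). Likeness over 38 mice used log2 CPM with a prior count of 2, and correlations between ligands added 0.5 to each count and used 100000 permutations. By the naming rule, the text names the 10 ligands, genes of the other lists called over both chows, receptors of the ligands, the 3 genes most like each called ligand and the genes that check the labels. Others are marked where named. The members and lists were chosen with earlier results of these data known. Alternatives were DESeq2 1.42.0, RLE size factors, library totals, no filter, a single fit of all groups of a cohort, lane 4 alone for WT mice of 6 months, an adjusted p under 0.05, a replicate block, a term for Y-linked expression or its restriction, and leaving out each mouse. The fit was checked on simulated counts. A few genes and 1 sequence are not reported here.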

Additional observations from a re-analysis of the deposited data

Results flagged for a closer look

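In each of 58 sets of 4 to 7 mice, that is 1 ligand in 1 group, the mouse farthest from the others was compared with Dixon's 95% limit, which chance passes in about 1 in 20 groups. It was passed by 5 single mice. Ccl2 in 1 mouse (10-month APPPS1ΔE9 anle138b) was at 0.509 CPM, against 0.0404 to 0.218 CPM in the other mice of its group. Ccl3 in mouse 53 (10-month WT placebo) was at 0.622 CPM, against 0.208 to 0.312 CPM. Ccl6 in mouse 84 (6-month APPPS1ΔE9 anle138b) was at 2.80 CPM, against 2.31 to 2.33 CPM. Cxcl16 in mouse 100 (10-month APPPS1ΔE9 placebo) was at 2.31 CPM, against 1.95 to 2.05 CPM. Cx3cl1 in mouse 83 (6-month WT anle138b) was at 554 CPM, against 496 to 498 CPM.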

How the results depend on the processing

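Of 640 log2 fold changes refitted under the alternatives other than leaving out single mice, 612 stayed on their side of the threshold, 22 lost a call, 6 gained one, none of the called values turned its sign, and 13 uncalled ones did. The count of ligands called between genotypes on placebo went from 2 to 0 at 6 months with the replicate block, with the term for Y-linked expression and in mice with Y-linked expression only. At 10 months on placebo it went from 3 to 1 (Ccl4) with the block and to 0 with the term and with the restriction, and on anle138b from 3 to 1 (Ccl4) with the block, to 0 with the restriction and to 4 (Cxcl16 added) with the term. Over both chows at 6 months it went from 1 to 2 with DESeq2 and to 0 with the term and with the restriction. It went from 0 to 1 (Ccl6) for anle138b in APPPS1ΔE9 mice of 6 months with DESeq2 and without the filter, and from 0 to 2 (Ccl4 and Ccl6) for the difference between cohorts with DESeq2. For these moves the cause was not tested, other than that the restriction leaves fewer mice. Over both chows at 10 months the count was 4, or 3 with the restriction. Same-numbered mice had correlations of their deviations between -0.594 and 0.626, with means per comparison from -0.249 to 0.35. No comparison had all of them above 0.1. With 4 or 5 pairs per comparison, this cannot settle whether the replicate numbers pair mice. The block moved no other count. Without single mice, the count ran from 0 to 2 on placebo at 6 months, from 1 to 3 on placebo at 10 months, from 3 to 3 on anle138b at 10 months, from 0 to 1 for anle138b in APPPS1ΔE9 mice of 6 months, from 1 to 2 and 4 to 4 over both chows at 6 and 10 months, and from 0 to 2 for the difference between cohorts. Of the 1399 log2 fold changes in those refits, 1366 stayed on their side, 18 lost and 15 gained a call. DESeq2 gave no adjusted p for Ccl3 and Ccl6 on placebo at 6 months. Few reads limit Ccl2 and Ccl5, and Ccl4 outside APPPS1ΔE9 mice of 10 months.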
